A study of Mus musculus with 12 samples.

Results

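Transcripts of 8 genes that glucocorticoid hormone is known to induce and of 2 steroid receptors were followed in 12 mouse hearts. The 10 genes are Fkbp5, Tsc22d3, Zbtb16, Mt1, Mt2, Cdkn1a, Errfi1 and Sgk1, with the receptor genes Nr3c1 and Nr3c2. They were found by symbol among the 24061 symbols listed for each heart, and all 10 were present. All hearts came from male C57BL/6J mice fed chow and aged 2 to 4 months. The labels give 6 hearts with the genotype HKII+/- (one copy of the hexokinase II gene Hk2) and 6 with HKII+/+ (wild type), and no steroid treatment, stress or time of day. They do not say how the Hk2 allele was made, nor which chambers of the heart were taken. In the submitters' labels 1 heart of each genotype, replicate 11 of HKII+/- and replicate 13 of HKII+/+, carries a mark as a possible outlier. Results for the 10 genes are given with and without this pair.

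Glucocorticoids (corticosterone in the mouse) enter the cell and bind the glucocorticoid receptor, the product of Nr3c1, which is held ready by heat shock protein 90 and its partners. The bound receptor moves to the nucleus, sits on glucocorticoid response elements as a pair, and raises or lowers transcription of its targets. Nr3c2 encodes the mineralocorticoid receptor, which binds aldosterone and also glucocorticoids, and in heart muscle, where the enzyme that inactivates corticosterone is scarce, glucocorticoids are thought to be its main ligand. Fkbp5 encodes FKBP51, a co-chaperone that lowers the receptor's affinity for hormone and so closes a feedback loop. Tsc22d3 encodes GILZ, a leucine zipper protein that mediates anti-inflammatory actions of the hormone, and Zbtb16 encodes the zinc finger repressor PLZF. Mt1 and Mt2 encode metallothioneins, small proteins that bind zinc and copper and are induced both by metals and by glucocorticoids. Cdkn1a encodes the cell cycle inhibitor p21, also a target of p53. Errfi1 encodes MIG6, a feedback inhibitor of the EGF receptor, and Sgk1 encodes a kinase that acts on ion channels downstream of both receptors.

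Sequences upstream of the genes show which textbook elements lie close to a start site. RefSeq windows (GRCm38.p6) of 300 bases, 250 before and 50 after a start, were searched on both strands in 8 of the 10 genes, which have 17 windows. The full palindrome of the glucocorticoid response element, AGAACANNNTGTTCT, was present in 3 of all 32817 windows (0.00914%). One of the 3 belonged to Sgk1, at chr10:21993701-21993715, 189 bases upstream of an annotated start on the plus strand. This window is shown because it carries the only full palindrome among the 17, which is in capitals; it spans chr10:21993640-21993889.

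Sgk1: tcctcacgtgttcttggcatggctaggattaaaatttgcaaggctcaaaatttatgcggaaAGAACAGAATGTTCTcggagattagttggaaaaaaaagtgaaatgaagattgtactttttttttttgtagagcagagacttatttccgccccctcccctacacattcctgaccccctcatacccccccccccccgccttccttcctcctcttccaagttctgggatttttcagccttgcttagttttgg

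One arm of the palindrome, AGAACA, was found in 19% of all windows. Outside that window it was matched in 2 other Sgk1 windows and in 1 Tsc22d3 window, and in none of those of Fkbp5, Mt1, Mt2, Cdkn1a, Errfi1 or Nr3c2. These letters can lie elsewhere in a gene, since receptor sites are often far from the start.

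Mt1 and Mt2 are neighbours on the plus strand of chromosome 8, with 5513 bases between them. Their windows are shown because these 2 genes varied together more closely than any other pair here. Capitals mark the core of the metal response element, TGCGCNC or TGCACNC, to which the zinc sensor MTF1 binds. The Mt1 sequence is chr8:94178839-94179081 and the Mt2 sequence is chr8:94172368-94172617, both on the plus strand.

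Mt1: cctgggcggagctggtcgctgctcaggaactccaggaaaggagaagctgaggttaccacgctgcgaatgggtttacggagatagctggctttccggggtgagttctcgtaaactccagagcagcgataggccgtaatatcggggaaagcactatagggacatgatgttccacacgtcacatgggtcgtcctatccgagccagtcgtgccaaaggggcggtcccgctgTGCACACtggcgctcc

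Mt2: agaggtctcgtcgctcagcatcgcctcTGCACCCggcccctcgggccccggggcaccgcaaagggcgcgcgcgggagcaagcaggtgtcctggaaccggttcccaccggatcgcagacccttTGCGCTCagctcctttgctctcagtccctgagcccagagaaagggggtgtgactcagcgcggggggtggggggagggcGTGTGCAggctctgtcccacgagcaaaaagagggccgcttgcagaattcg

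Over the full 300 bases the core occurred 3 times in the Mt1 window and 4 times in the Mt2 window. At least 1 core was in 25.7% of all windows, at least 3 in 1.97% and at least 4 in 0.518%. Cdkn1a is shown because, of the other 8 genes, it had the highest correlations with the metallothioneins, which did not pass adjustment. Capitals in its window, chr17:29090729-29090975 on the plus strand, mark CATGNNNNNNCATG, the paired core of a p53 site. It lay 48 bases upstream of 1 of the 2 annotated starts; the window of the other start had no match. The motif was found in 0.71% of all windows.

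Cdkn1a: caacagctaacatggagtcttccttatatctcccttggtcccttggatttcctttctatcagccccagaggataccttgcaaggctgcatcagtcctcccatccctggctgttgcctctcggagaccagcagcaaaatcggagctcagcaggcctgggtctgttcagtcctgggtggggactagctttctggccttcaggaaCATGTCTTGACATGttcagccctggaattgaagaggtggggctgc

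The deposited counts summed to 17263209 to 51556592 per library, and the 10 genes had 130 counts or more in each of the 12 libraries. Values below are CPM, counts per 1000000 counts of a library, scaled with TMM factors (which allow for differences in library makeup) computed over the 12 libraries. The 2 marked libraries stood apart before any of these genes was considered. Their TMM factors were 0.786 (replicate 11) and 0.760 (replicate 13), against 0.993 to 1.093 in the other 10. Summed CPM of 7 ventricular muscle markers were 180800 and 203200 in replicates 11 and 13, against 64190 to 88790 in the unmarked libraries. Summed CPM of 6 fibroblast markers were 10080 and 3028, against 818 to 1369. A list of 7 lung epithelium markers summed to 279 CPM in replicate 11 and to 1.78 or less in every other library. A list of 5 markers of the adrenal cortex, the source of the hormone, stayed at 8.1 CPM or less in all 12 libraries. Atrial markers ranged from 338 to 7235 CPM in the unmarked HKII+/- libraries and from 2510 to 6245 in the unmarked HKII+/+ ones. They summed to 17000 CPM in replicate 11 and to 5673 in replicate 13, the latter inside the unmarked range. In whole tissue, fewer cells of a type and less RNA per cell cannot be told apart.

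Per kilobase of exon, the scale on which genes can be compared, Mt1 was the most abundant of the 10 and Nr3c2 and Fkbp5 the least. Over the 10 unmarked libraries the mean level was 88.9 ± 26.1 CPM per kb for Mt1 (SD, n = 10), 31.7 ± 16.9 for Mt2, 31.1 ± 7.54 for Zbtb16 and 26.4 ± 6.30 for Tsc22d3. Sgk1 followed at 19.6 ± 3.11, then Nr3c1 at 13.98 ± 1.05. Cdkn1a (7.95 ± 2.83) and Errfi1 (7.85 ± 2.14) could not be ordered beyond their spread, and Mt2, Zbtb16 and Tsc22d3 overlapped as well. Fkbp5 stood at 3.10 ± 0.89 and Nr3c2 at 2.55 ± 0.53 CPM per kb, and their ranges overlapped. The glucocorticoid receptor transcript was therefore above the mineralocorticoid receptor transcript in each unmarked library, at 12.7 to 16.2 against 1.92 to 3.75 CPM per kb. When the length of the principal transcript replaced the union of all exons, Mt1 reached 202, Tsc22d3 58.1, Sgk1 39.2, Mt2 36.5 and Zbtb16 32.2 CPM per kb, and the order among those below Mt1 changed while the lower 5 kept their places.

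Several positions bear on how the counts can be read. Mt2 lies on chromosome 8 at 94172664 to 94173568 and Mt1 at 94179082 to 94180327 (GENCODE vM21, GRCm38, plus strand). Exons of the antisense gene Gm45774 cover 73.5% of the exon bases of Mt2, and this gene is not among the listed symbols. The strand setting of the counting is not given in the sources used here, so reads of Mt2 and of this antisense gene cannot be told apart. Mt1 and Mt2 are also similar in sequence, and their split is uncertain to that extent. Nr3c2 (chromosome 8, 76899442 to 77245012, plus strand) shares 3.8% of its exon bases with the antisense Gm10649, and Cdkn1a (chromosome 17, 29090976 to 29100727, plus strand) shares 7.7% with AC167363.2. No other gene's exons overlapped those of Fkbp5 (chromosome 17, 28399094 to 28517527), Zbtb16 (chromosome 9, 48654297 to 48836222), Tsc22d3 (chromosome X, 140539528 to 140600659), Nr3c1 (chromosome 18, 39410545 to 39519421), all on the minus strand, or Errfi1 (chromosome 4, 150853919 to 150868892) and Sgk1 (chromosome 10, 21882184 to 21999903) on the plus strand. All 10 are annotated as protein coding.

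The receptor Nr3c1 varied less among the unmarked hearts than the other 9 genes. The SD of log2 CPM over these 10 libraries was 0.11 for Nr3c1, and 36.8% of 12878 genes at a mean log2 CPM of 0 or more had a smaller one; the median gene had 0.13. It was 0.60 for Mt2, 0.46 for Cdkn1a, 0.43 for Errfi1, 0.40 for Mt1, 0.37 for Fkbp5, 0.36 for Tsc22d3, 0.33 for Zbtb16, 0.28 for Nr3c2 and 0.24 for Sgk1. For these 9 genes, between 80.3% and 97.7% of genes had a smaller SD.

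**Figure D1:**
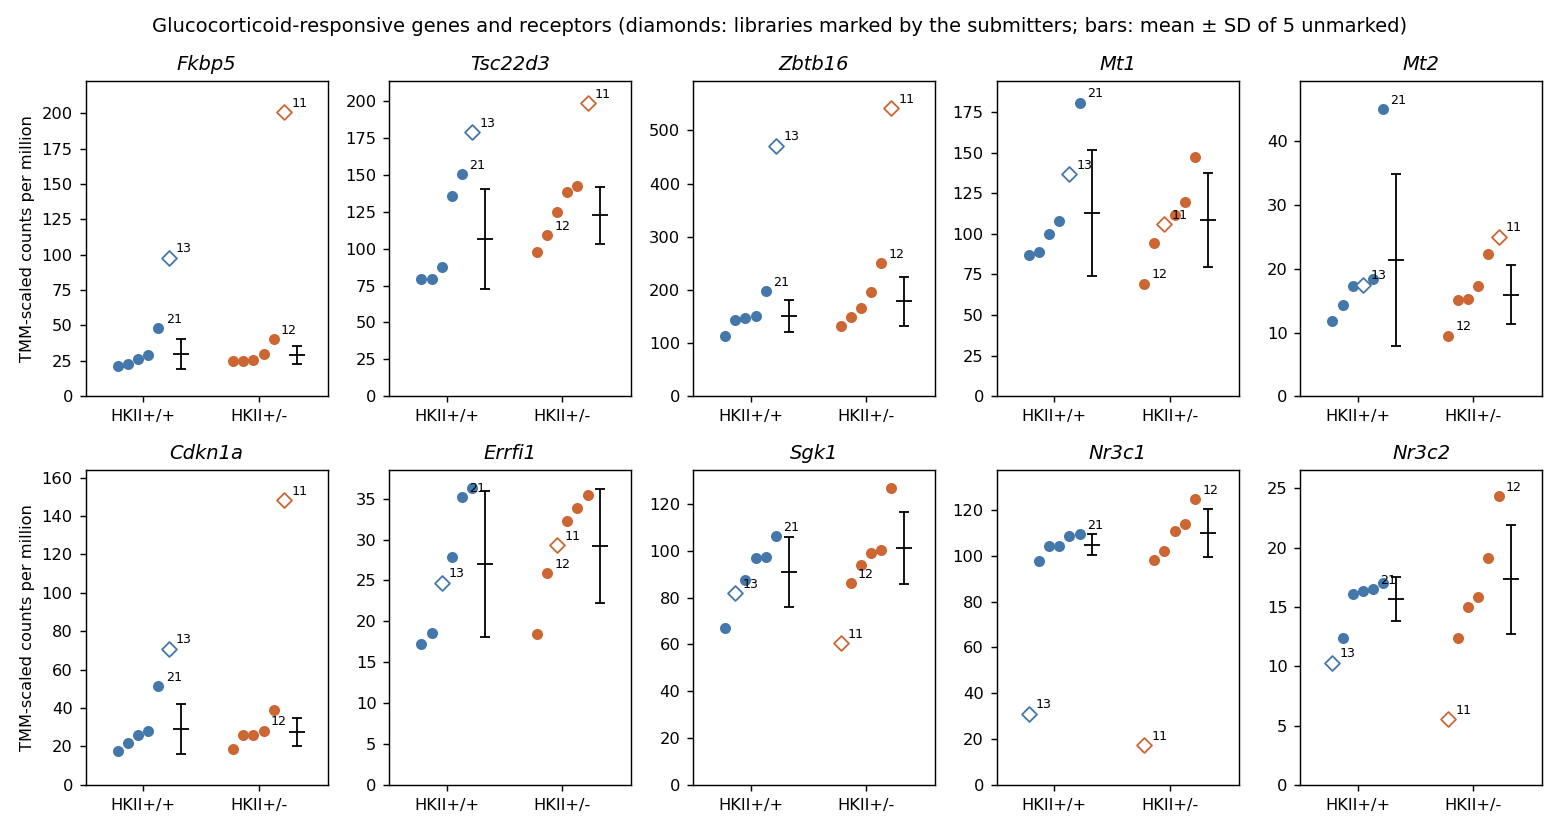
Level of each of the 10 genes in each library, in TMM-scaled CPM on a linear axis from 0, with 6 HKII+/+ libraries on the left and 6 HKII+/- libraries on the right of each panel. Filled points are unmarked libraries, open diamonds the marked replicates 11 and 13, bars the mean ± SD of the 5 unmarked libraries, and numbers name replicates 11, 12, 13 and 21. Fkbp5 reached 201 CPM in replicate 11 against at most 47.9 in any unmarked library, and Nr3c1 was at 17.3 and 31.0 CPM in the marked pair.

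Fkbp5, the feedback co-chaperone, was low in 8 unmarked hearts and higher in 2. In HKII+/+ it measured 21.1 (replicate 18), 23.1 (15), 26.5 (17), 29.4 (14) and 47.9 CPM (21). In HKII+/- it measured 25.05 (replicate 22), 25.2 (19), 25.4 (20), 29.7 (16) and 40.4 CPM (12). Replicates 21 and 12, 1 of each genotype, were the highest, and the genotypes overlapped.

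Zbtb16, the gene of the repressor PLZF, was also highest in these 2 hearts, in the reverse order. In HKII+/+ it measured 113 (replicate 17), 144 (18), 148 (15), 150.3 (14) and 197 CPM (21). The HKII+/- libraries gave 133 (replicate 22), 148 (20), 165 (16), 197 (19) and 250 CPM (12). HKII+/- replicate 19, low in Fkbp5, had nearly the same Zbtb16 level as HKII+/+ replicate 21.

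The metallothioneins separated the same 2 hearts. Mt1 measured 86.8 (replicate 14), 88.8 (18), 100.2 (15), 108 (17) and 181 CPM (21) in HKII+/+. HKII+/- hearts had 69.4 (replicate 12), 94.4 (16), 112 (19), 120 (20) and 147 CPM (22). Replicate 21 was thus the highest and replicate 12 the lowest of the 10.
Mt2 measured 11.7 (replicate 18), 14.3 (14), 17.3 (15), 18.4 (17) and 45.02 CPM (21) in HKII+/+. In HKII+/- the values were 9.47 (replicate 12), 15.2 (16), 15.3 (19), 17.4 (20) and 22.3 CPM (22). The highest and the lowest library were again replicates 21 and 12, and they differed 4.75-fold.

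Cdkn1a, the gene of p21, was highest in replicate 21 as well. It measured 17.5 (replicate 18), 21.9 (14), 26.2 (15), 28.3 (17) and 51.3 CPM (21) in HKII+/+. The HKII+/- values were 18.5 (replicate 19), 25.7 (16), 26.1 (20), 28.3 (12) and 38.9 CPM (22). Replicates 18 and 19 were the lowest of their genotypes, and replicate 12 was the third highest of the 10.

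Tsc22d3 and Errfi1 shared another order of hearts. Tsc22d3, the gene of GILZ, measured 79.5 (replicate 14), 79.6 (18), 87.3 (15), 136 (17) and 151 CPM (21) in HKII+/+. Among HKII+/- hearts it measured 97.6 (replicate 19), 109 (12), 125 (16), 139 (20) and 143 CPM (22). Its lowest 4 libraries were replicates 14, 18, 15 and 19, and replicates 21, 22, 20 and 17 were its highest 4.
Errfi1, the gene of the EGF receptor inhibitor MIG6, measured 17.3 (replicate 18), 18.5 (14), 27.9 (15), 35.2 (21) and 36.3 CPM (17) in HKII+/+. In HKII+/- it measured 18.5 (replicate 19), 25.9 (12), 32.2 (20), 33.9 (22) and 35.5 CPM (16). Its 3 lowest libraries were replicates 14, 18 and 19, also among the 4 lowest in Tsc22d3.

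Sgk1, the gene of the ion channel kinase, ranged from 67.1 (HKII+/+ replicate 14) to 126.7 CPM (HKII+/- replicate 22), with a median of 97.2. Apart from these 2 libraries, the other 8 lay between 86.1 and 106 CPM.

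The receptors were both highest in HKII+/- replicate 12. Nr3c1 measured 97.8 (replicate 18), 104 (14), 105 (17), 109 (15) and 109 CPM (21) in HKII+/+. The HKII+/- libraries gave 97.98 (replicate 22), 102 (19), 111 (20), 114 (16) and 125 CPM (12). Its highest library was 1.27-fold above its lowest.
Nr3c2 measured 12.4 (replicate 18), 16.1 (14), 16.3 (15), 16.5 (21) and 16.98 CPM (17) in HKII+/+. HKII+/- hearts had 12.4 (replicate 19), 14.95 (22), 15.9 (16), 19.1 (20) and 24.3 CPM (12). Replicate 12 stood above the other 9, and replicates 18 and 19 below them.

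In the 2 marked libraries Fkbp5, Zbtb16 and Cdkn1a were above, and both receptors below, all 10 unmarked libraries. Fkbp5 measured 201 CPM in replicate 11 and 98.0 in replicate 13, which is 7.75 and 3.78 times the unmarked median of 25.9. Zbtb16 measured 541 and 471 CPM, 3.62 and 3.16 times its median. Cdkn1a measured 148 and 70.9 CPM, 5.67 and 2.71 times its median. All 3 stayed above the unmarked range when CPM were scaled by the total count alone.
Tsc22d3, at 199 and 179 CPM, was also above the range with TMM scaling but not with total counts, where replicate 13 was inside it. Nr3c1 measured 17.3 CPM in replicate 11 and 31.0 in replicate 13, 16.2% and 29.1% of its unmarked median of 106.5. Nr3c2 measured 5.53 and 10.3 CPM, 34.1% and 63.4% of its median. Both receptors stayed below with total counts.
Sgk1 was at 60.5 and 82.0 CPM, the second of these inside the unmarked range, and with total counts both were below it. Mt1 (106 and 137 CPM), Mt2 (25.0 and 17.5) and Errfi1 (29.3 and 24.7) were inside their unmarked ranges with either scaling.

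The background of this contrast is high. Of 14107 genes tested, 32.1% were above all 10 unmarked libraries in both marked ones and 38% were below, so being outside the range does not single a gene out. By the geometric mean of the 2 ratios to the median, 1.26% of tested genes were higher than Fkbp5, 3.47% higher than Cdkn1a and 5.31% higher than Zbtb16. On the same scale 8.99% were lower than Nr3c1 and 24.5% lower than Nr3c2. Genes that were below had longer exons, with a median of 5202 bases against 3950 for those above and 4444 for all, and the exons of Nr3c1 and Nr3c2 span 7684 and 6474 bases. Those of Fkbp5 span 9468 bases, among the longer ones, and it was above. The parts of exon length, of the marker sums given above and of the submitters' reason for the mark in these values were not tested.

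**Figure D2:**
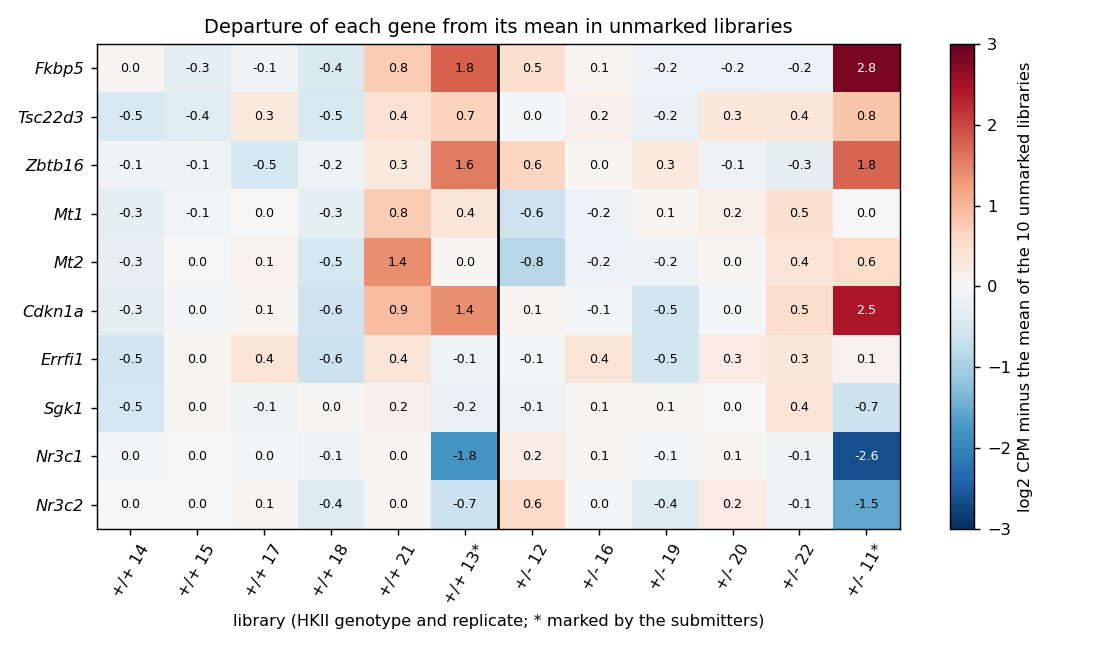
Difference of log2 CPM from the mean of the 10 unmarked libraries for each of the 10 genes (rows) in each library (columns), HKII+/+ left and HKII+/- right of the line, with the marked replicates 13 and 11 last in each block. Red is above and blue below the mean. The marked columns are red for Fkbp5, Zbtb16 and Cdkn1a and blue for Nr3c1 and Nr3c2, and among the unmarked columns replicates 21 and 12 lie on opposite sides of the mean for Mt1 and Mt2.

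The design asks whether the genes differ when one copy of Hk2 is lost, and no difference was called for any of the 10. Hk2 itself, the check of the labels, measured 292 ± 40.6 CPM in HKII+/- and 509 ± 29.6 in HKII+/+ (SD, n = 5 unmarked each). It was the 1 gene of 14139 called by edgeR's quasi-likelihood test in the unmarked libraries (0.00707%; log2 fold change -0.80, adjusted p = 0.0165). No gene, Hk2 included, was called in 7 of the 10 sets that leave out 1 unmarked library (replicates 12, 15, 16, 17, 18, 19 or 20). In the library labelled HKII+/- replicate 11 it was 568 CPM, against its label. This lay above the 5 unmarked HKII+/+ libraries (471 to 542 CPM) and below the marked HKII+/+ replicate 13 (652 CPM). Scaled by total counts it was 446.5 CPM, below all HKII+/+ libraries (493.7 to 579) and above the other HKII+/- ones (272 to 351). Directions that rest on that library carry this doubt. With all 12 libraries edgeR called 0 of 14107 genes (0%), DESeq2 and limma voom 0, and limma voom with sample quality weights 2.

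Among the unmarked libraries none of the 10 genes reached an unadjusted p below 0.05, against 2.8% of all genes tested. With all 12 libraries none did either, against 0.262% of all genes. DESeq2 and limma voom, with and without quality weights, also called none of the 10 in either set. For Fkbp5 with all 12 libraries DESeq2 gave no adjusted p, so it could not be called there. A fit with the atrial marker level as a further term called none either. Levels of the 2 genotypes overlapped in all 10 genes. The share of all genes that overlap was not counted, so this does not set the 10 apart. In the unmarked libraries 6 of the 10 were higher and 4 lower in HKII+/-, with a median log2 fold change of 0.09 against -0.0046 for all genes tested.

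The intervals say what size of difference the data allow. For Nr3c1 the log2 fold change was 0.07 (SE 0.07) without the marked libraries, and the 95% interval of the ratio ran from 0.948 to 1.16. For Sgk1 it was 0.16 (SE 0.13), with the ratio between 0.919 and 1.35. For Zbtb16 it was 0.25 (SE 0.18) and for Tsc22d3 0.20 (SE 0.19), with upper limits of 1.56-fold and 1.54-fold.
Fkbp5 differed by -0.02 (SE 0.22; ratio 0.713 to 1.37) and Cdkn1a by -0.07 (SE 0.26; ratio 0.639 to 1.42). The widest interval was that of Mt2, at -0.42 (SE 0.34; ratio 0.447 to 1.25). Mt1 was at -0.06 (SE 0.23), Errfi1 at 0.11 (SE 0.23) and Nr3c2 at 0.15 (SE 0.16).
Several of these values moved when 1 library was left out. Without HKII+/+ replicate 21 Mt2 moved to 0.04. Without the same library Mt1 moved to 0.18, Fkbp5 to 0.22 and Cdkn1a to 0.23. Without HKII+/- replicate 12 Zbtb16 moved to 0.09, Nr3c1 to 0.017, Nr3c2 to -0.013 and Fkbp5 to -0.17. Without HKII+/+ replicate 14 Tsc22d3 moved to 0.11, Sgk1 to 0.06 and Errfi1 to -0.0017.
With all 12 libraries Fkbp5 differed by 0.50 (SE 0.61) and Cdkn1a by 0.40 (SE 0.54), and both changed sign when replicate 11 was left out, to -0.50 and -0.39. Zbtb16, at 0.23 (SE 0.42), moved to -0.20 in the same way. With the clock output arm as a covariate Fkbp5 differed by 0.078 and Cdkn1a by 0.096, and limma voom with quality weights gave 0.10 and 0.026. Adjusted p-values of all 10 genes were 1 with all libraries and at least 0.9999 without the marked ones (edgeR).

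**Figure D3:**
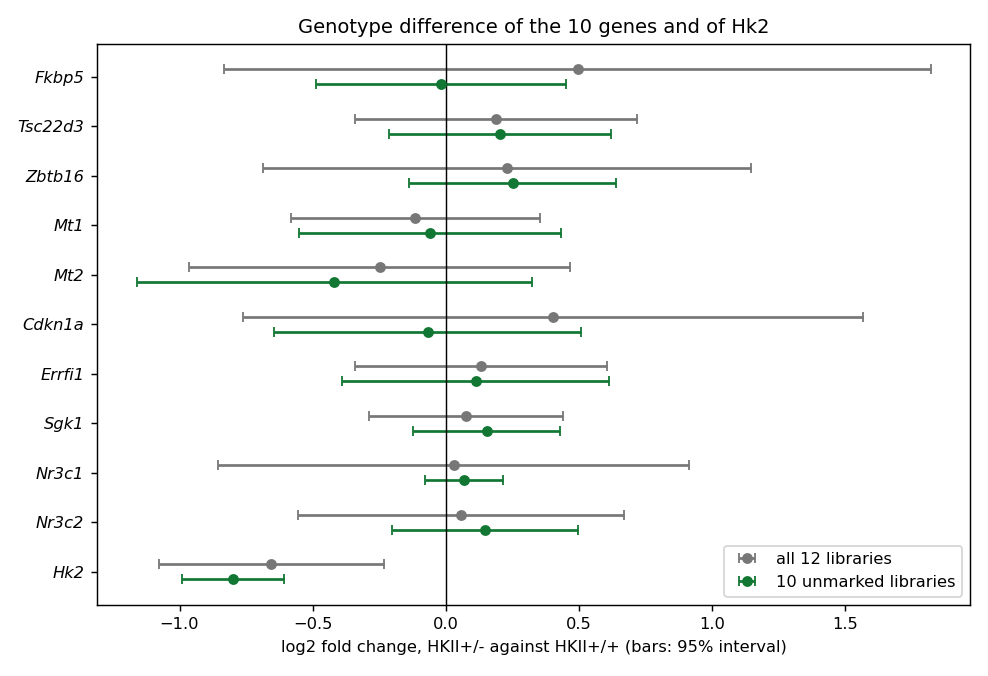
Log2 fold change of HKII+/- against HKII+/+ for the 10 genes and for Hk2 (x axis), with 95% intervals from edgeR's quasi-likelihood fit. Grey points use all 12 libraries and green points the 10 unmarked ones. Intervals of all 10 genes include 0 in both fits, those of Fkbp5 and Cdkn1a are widest with all libraries, and those of Hk2 lie below 0.

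Co-variation was measured over the 10 unmarked libraries, on log2 CPM, for all 45 pairs of the 10 genes. Of these, 33 correlations were positive and 12 negative, the lowest at r = -0.36. Benjamini-Hochberg adjustment over the 45 pairs left 3 by Pearson's r and 1 by Spearman's rho below 0.05, and 13 pairs had an unadjusted permutation p below 0.05, all of them positive. All values within a library share its depth and its tissue makeup. Such counts were not made for pairs of all genes, so here and below they do not set the 10 apart.

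Mt1 and Mt2 were the closest pair, with r = 0.94 and rho = 0.93 (permutation p = 6e-05 with 100000 resamples, adjusted p = 0.0027). The call held when any 1 library was left out, with the highest adjusted p of 0.0445 without replicate 21. Without the 2 libraries farthest from the median of Mt1, replicates 21 and 12, r was 0.85 and the adjusted exact permutation p 0.117. The overlap of Mt2 with an antisense gene and the likeness of the 2 sequences, given above, bear on this pair.
Tsc22d3 and Errfi1 reached r = 0.88 and rho = 0.77 (permutation p = 0.00168, adjusted p = 0.0378; rho adjusted p = 0.135). The call was lost in 6 of the 10 sets that leave out 1 library, with r of at least 0.84 in each. Without replicates 14 and 18, the farthest in Tsc22d3, r was 0.74.
Nr3c1 and Nr3c2, the receptors, reached r = 0.84 and rho = 0.73 (permutation p = 0.00261, adjusted p = 0.0392; rho adjusted p = 0.142). The call was lost in 9 of the 10 sets, and r was 0.66 without replicate 12. Without replicates 12 and 22 it was 0.71.

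**Figure D4:**
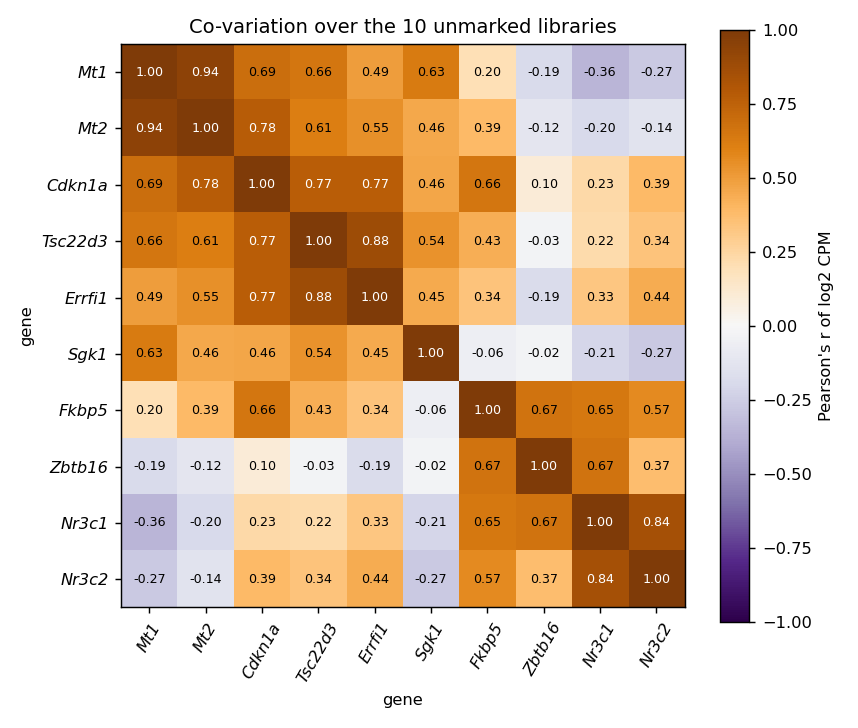
Pearson's r of log2 CPM between each pair of the 10 genes over the 10 unmarked libraries, from -1 (purple) to 1 (orange-brown). The upper left block of Mt1, Mt2, Cdkn1a, Tsc22d3 and Errfi1 and the lower right block of Fkbp5, Zbtb16, Nr3c1 and Nr3c2 are positive throughout, and Mt1 and Mt2 are below 0 with Zbtb16, Nr3c1 and Nr3c2.

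The other pairs with an unadjusted p below 0.05 lay within 2 overlapping sets of genes that met at Fkbp5 and Cdkn1a. Cdkn1a went with Mt2 (r = 0.78), Tsc22d3 (0.77), Errfi1 (0.77) and Mt1 (0.69), and Tsc22d3 with Mt1 (0.66) and Mt2 (0.61). Fkbp5 went with Zbtb16 (0.67), Cdkn1a (0.66) and Nr3c1 (0.65), and Zbtb16 with Nr3c1 (0.67). None of these 10 pairs passed the adjustment, their adjusted p-values ranging from 0.0644 to 0.163 (permutation test). Without HKII+/+ replicate 21 Cdkn1a correlated at 0.49 with Mt2 and at 0.40 with Mt1.
The sets were not separate. Besides Fkbp5 with Cdkn1a, correlations between them reached 0.44 (Errfi1 with Nr3c2), 0.43 (Fkbp5 with Tsc22d3) and 0.39 (Fkbp5 with Mt2, and Cdkn1a with Nr3c2), and others were near 0 or below, such as Zbtb16 with Tsc22d3 (-0.03) and Mt1 (-0.19), and Nr3c1 with Mt1 (-0.36). Whether the pairs within the sets differ from those between them was not tested.

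Leaving out 2 hearts lowered the correlations of Fkbp5 with Zbtb16 and Cdkn1a. These 2 were picked as the highest in Fkbp5, which narrows the range of Fkbp5, so the step cannot compare the sets. Without HKII+/- replicate 12 and HKII+/+ replicate 21, the highest in Fkbp5, the correlation of Fkbp5 with Zbtb16 was 0.09, with Cdkn1a 0.23 and with Nr3c1 0.50. Without the same 2 libraries that of Tsc22d3 with Errfi1 was 0.86. That of Mt2 with Cdkn1a was 0.91, against 0.49 without replicate 21 alone. Without both libraries no pair of the 45 was below 0.05 after adjustment by the exact permutation test over 8 libraries. Before adjustment 9 were, all of them within Mt1, Mt2, Cdkn1a, Tsc22d3 and Errfi1. With each genotype centred on its own mean, 7 pairs passed, among them Mt1 and Mt2 at r = 0.96. The permutation did not allow for the means taken out, so its p-values are too low and this count is an upper one.

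**Figure D5:**
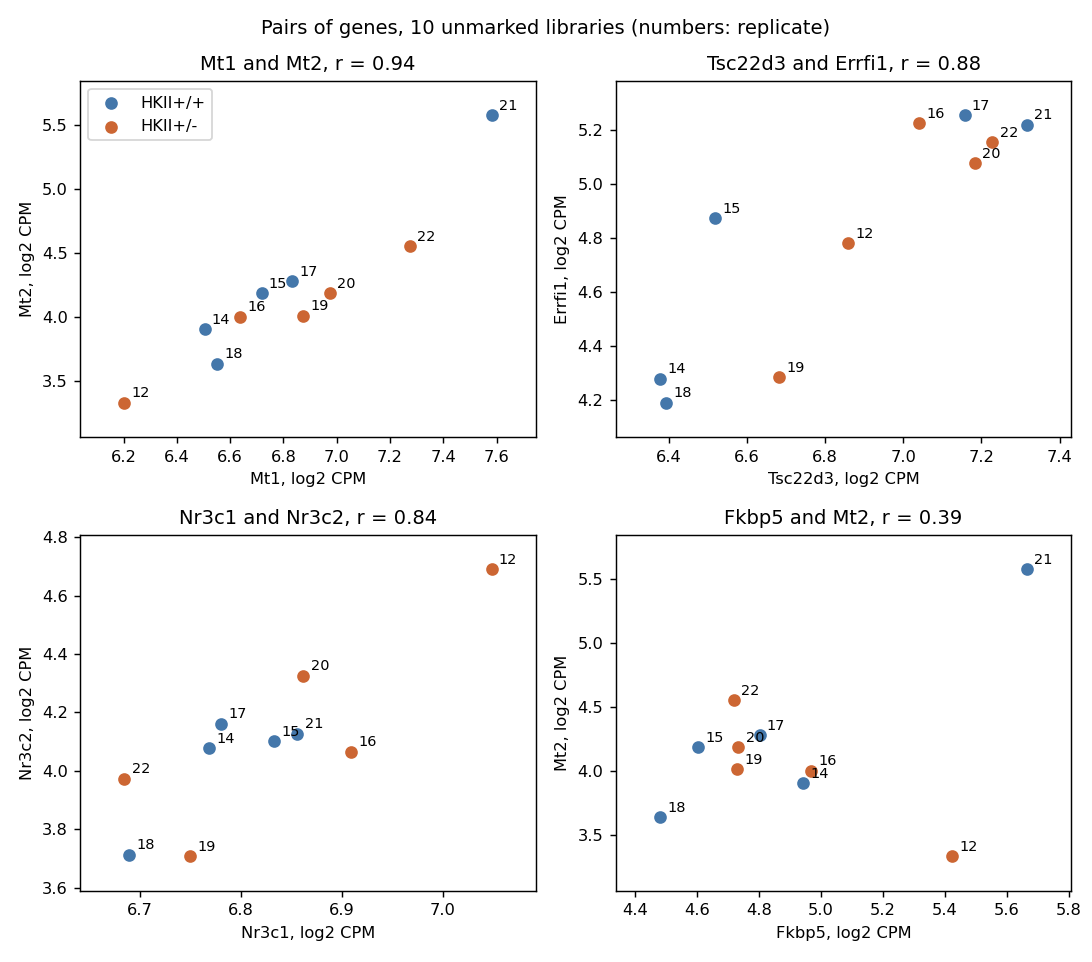
Log2 CPM of 4 pairs of genes in the 10 unmarked libraries, HKII+/+ in blue and HKII+/- in orange, each point labelled with its replicate number. Mt1 and Mt2 lie along 1 line from replicate 12 to replicate 21, Tsc22d3 and Errfi1 share their 5 highest libraries (replicates 16, 17, 20, 21 and 22) and are both low in replicates 14 and 18, the receptor pair extends to replicate 12, and Fkbp5 against Mt2 has replicates 12 and 21 at opposite ends of Mt2.

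A fit of each gene on the log2 CPM of Fkbp5, with genotype as a term, asked whether the other genes follow this marker of receptor activity. edgeR's quasi-likelihood test called 0 of 14138 genes in the unmarked libraries (0%), with 1512 at an unadjusted p below 0.05 (10.7%). Slopes, in log2 CPM per log2 unit of Fkbp5, were positive for 8 of the other 9 genes, with a median of 0.42 against 0.0012 for all genes. A positive slope with an unadjusted p below 0.05 was found for 4 of the 9 and for 6.39% of all genes. The 4 were Zbtb16 (0.59, SE 0.18, adjusted p = 0.363), Cdkn1a (0.80, SE 0.29), Nr3c1 (0.19, SE 0.08) and Nr3c2 (0.44, SE 0.20). Without HKII+/- replicate 12 the receptor slopes were 0.12 (SE 0.09) for Nr3c1 and 0.19 (SE 0.20) for Nr3c2.
Mt2 had a slope of 0.83 (SE 0.41), Tsc22d3 of 0.42 (SE 0.25), Errfi1 of 0.34 (SE 0.33), Mt1 of 0.32 (SE 0.31) and Sgk1 of -0.03 (SE 0.18). Without HKII+/+ replicate 21 the slopes were -0.94 for Mt1, -0.91 for Mt2, -0.07 for Tsc22d3 and 0.13 for Cdkn1a. Zbtb16 kept a positive slope without any 1 library, between 0.43 and 0.69. So did Cdkn1a (0.13 to 1.03), Errfi1 (0.015 to 0.56), Nr3c1 (0.12 to 0.33) and Nr3c2 (0.19 to 0.87).
With the marked pair included, the slope of Nr3c1 was -0.81 and that of Nr3c2 -0.38, with the signs reversed, and 10160 genes were called (edgeR).

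Genes outside the 10 lay closer to Fkbp5 than any of them. By Pearson's r over the 10 unmarked libraries, among 12877 genes, the nearest were Taok1 (0.98), Mettl4 (0.95), Zcchc10 (0.94), Sec24a (0.94) and Zfx (0.94). Of the 10, Zbtb16 ranked 665th, Cdkn1a 721st, Nr3c1 768th and Sgk1 7085th. The 8 genes with the smallest p in the slope fit were Taok1 (slope 0.43), Acta1 (1.28), Mettl4 (0.62), Zfx (0.43), Rc3h2 (0.46), Cygb (-0.38), Sec24a (0.35) and Tbx15 (1.26), with adjusted p-values between 0.127 and 0.322 (edgeR). Acta1, skeletal alpha-actin, is a fetal gene of heart muscle, and Cygb encodes cytoglobin.

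Around the 10 genes, 16 lists of related genes were read from the same fits, 167 genes of which 154 were tested. None was called between the genotypes in either set of libraries by edgeR. With all 12 libraries 3 of the 154, all heat shock genes, had an unadjusted p below 0.05, against 0.262% of all genes tested. In the unmarked libraries 10 of the 154 did, against 2.8% of all genes tested. Values and counts of these lists leave out the marked pair unless stated. Of 29 other glucocorticoid-induced genes, 9 were higher and 20 lower in HKII+/- without the marked pair, at a median log2 fold change of -0.07, and 15 were higher and 14 lower with it. The most abundant of these were Pdk4, which blocks entry of pyruvate into the citric acid cycle (797 ± 227 CPM in HKII+/- and 846 ± 238 in HKII+/+; SD, n = 5), and Glul, glutamine synthetase (547 ± 69.4 and 562 ± 96.9). On Fkbp5, 24 of the 29 had a positive slope, with a median of 0.14, while 50.3% of all slopes were positive. Of the 29, 5 had an unadjusted p below 0.05 (edgeR), against 10.7% of all genes.
Of 12 receptor chaperones and co-chaperones, 10 were higher and 2 lower in HKII+/- in both sets. Hsp90ab1, a form of heat shock protein 90, measured 1729 ± 263 CPM in HKII+/- and 1562 ± 50.4 in HKII+/+, and Hspa8 1054 ± 250.9 and 882 ± 101 (SD, n = 5). All 5 heat shock genes were higher in HKII+/-, with a median of 0.76 without the marked pair and 0.58 with it, and 3 of them had an unadjusted p below 0.05 (edgeR), against 2.8% of all genes in the unmarked fit. Of all genes in that fit, 47.3% were higher. Replicate 12, the library with the highest Zbtb16 and receptors, also had the highest mean of this list, at a log2 CPM of 6.54 against 4.05 to 5.29 in the other unmarked libraries.

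Other steroid receptors were scarce. Of 5 listed, 3 were tested, and the most abundant, the membrane receptor gene Gper1, measured 2.25 ± 0.33 and 1.88 ± 0.42 CPM in HKII+/- and HKII+/+ (SD, n = 5). Among 6 genes of steroid activation and inactivation, H6pd, which supplies NADPH to the enzyme that regenerates corticosterone, measured 58.5 ± 3.27 CPM in HKII+/- and 58.4 ± 6.99 in HKII+/+. Abcb1a, a steroid-exporting pump, measured 33.8 ± 2.42 and 31.9 ± 4.03 (SD, n = 5). Among 12 coregulators, 8 were higher and 4 lower (6 and 6 with all 12 libraries), led in abundance by Ppargc1a (217 ± 46.7 and 225 ± 76.2) and Ncor1 (193 ± 10.6 and 188 ± 11.8).

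Relatives of the single genes can be set beside them. Of 6 genes of metallothioneins and zinc handling tested, 3 were higher and 3 lower in HKII+/- (4 and 2 with all 12 libraries); the zinc transporter genes Slc39a14 and Slc30a1 measured 100.5 ± 12.4 and 99.2 ± 13.3, and 34.2 ± 3.11 and 34.5 ± 3.95 CPM. Of 17 p53 targets and cyclin-dependent kinase inhibitors other than Cdkn1a, 8 were higher and 9 lower (6 and 11 with all 12 libraries), and Ccng1 (slope 0.22, SE 0.08) and Mdm2 (0.17, SE 0.07), the abundant ones, had positive slopes on Fkbp5 at adjusted p-values of 0.416 and 0.438 (edgeR).
Of 16 genes of the EGF receptor family, its ligands and inhibitors, 12 were higher and 4 lower (13 and 3 with all 12 libraries), with Lrig1 at 64.8 ± 2.49 and 62.4 ± 7.77 and Spred1 at 38.8 ± 5.12 and 35.7 ± 2.29 CPM. The kinase Pdpk1, which activates SGK kinases, measured 75 ± 6.08 and 74.3 ± 12.99 CPM, and the SGK substrate Ndrg2 1539 ± 145 and 1515 ± 70.5. Of 10 FKBP immunophilins other than Fkbp5, 4 were higher and 6 lower, against 7 and 3 with all 12 libraries. Fkbp9 measured 179 ± 6.11 and 182 ± 6.70 CPM, with 381 and 310.5 in replicates 11 and 13, and Fkbp1a 144 ± 4.07 and 143 ± 6.602, with 62.4 and 85.9. The TSC22 relatives Tsc22d1 (257 ± 22.9 and 242 ± 12.3) and Tsc22d4 (175 ± 6.38 and 172 ± 15.4) were both slightly higher in HKII+/-, within their spread. In 7 aldosterone and sodium transport genes, 4 were higher and 3 lower in both sets, with the kinase Wnk1 at 734 ± 55.1 and 738 ± 107 CPM (SD, n = 5, HKII+/- before HKII+/+ throughout).

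Time of day is not in the labels, and corticosterone and several of the 10 genes follow it. Of 10 clock genes of the output arm, 2 had a positive and 8 a negative slope on Fkbp5 (median -0.18). All 5 genes of the opposite phase had a positive slope (median 0.40). Replicate 12, high in Fkbp5, had the lowest output arm mean, at a log2 CPM of 5.74 against 5.96 to 6.30 in the other unmarked libraries. Its opposite arm mean was the highest, at 4.04 against 3.39 to 3.70. Whether these slopes rest on that library was not tested. Clock had a slope of 0.40 (SE 0.18) and Nfil3, which is also in the opposite arm, one of 0.77 (SE 0.16), with adjusted p-values of 0.46 and 0.327 (edgeR). Cry1, a clock repressor, measured 15.6 ± 1.45 CPM in HKII+/- and 11.8 ± 1.81 in HKII+/+ without the marked pair (log2 fold change 0.41, SE 0.11, adjusted p = 0.9999, edgeR), and its log2 fold change was 0.20 with it. The output genes Tef (246 ± 29.2 and 242 ± 24.0) and Nr1d1 (136 ± 28.9 and 172 ± 45.5) were within their spread. With the mean of the output arm as a further term, none of the 9 slopes was called. An unadjusted p below 0.05 was found for 4 of the 9 and for 1207 of all 14138 genes (edgeR). The receptor slopes were then 0.12 (SE 0.09) for Nr3c1 and 0.21 (SE 0.19) for Nr3c2, while those of Tsc22d3 and Mt2 were 0.63 (SE 0.25) and 1.06 (SE 0.39). Among 8 immediate early genes, which respond to handling and tissue collection, 6 were higher and 2 lower in HKII+/- in both sets, with Nr4a1 at 119 ± 42.7 and 86.3 ± 60.6 and Jun at 103 ± 15.9 and 84.9 ± 15.4 CPM (SD, n = 5), and 3 of the 8 had a positive slope on Fkbp5.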

How the data were processed

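RNA of 12 mouse hearts was captured by poly(A) tail and sequenced as single reads of 100 nt, per the labels' protocols. The submitters' processing notes name STAR 2.4.0, featureCounts 1.4.4 and mm10, equal to GRCm38. The authors deposited raw counts, whole numbers for each gene symbol, without normalization. The sources used here give neither the annotation nor the strand setting.

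Libraries were taken as separate animals from their titles, which do not state it. P-values therefore measure the spread between these libraries, which may be technical. No 2 replicates agreed within sampling noise (lowest chi-square per degree of freedom 7.03, genes with at least 20 counts). Totals of 17263209 to 51556592 set the precision of low genes.

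Genotypes were compared with edgeR 4.0.16 (glmQLFit, glmQLFTest, TMM, filterByExpr with a minimum count of 10, Benjamini-Hochberg at 0.05 over all genes tested), in R 4.3.3. Each fit used only the libraries of its comparison. TMM factors of all 12 libraries scaled every printed CPM, and those of the 10 unmarked ones the log2 CPM (prior count 0.5) of correlations and slopes. Correlations used 2-sided permutation tests of 100000 resamples, or exact ones with fewer than 10 libraries, computed with NumPy 2.4.6 (ranks with SciPy 1.17.1). Fits were tested on simulated data beforehand.

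Alternatives were other scalings and filters, DESeq2 1.42.0, limma 3.58.1 voom, atrial and clock covariates and leaving out libraries. For the pairwise correlations, leaving out single libraries or replicates 12 and 21, and the transcript length used for levels per kilobase, were chosen after seeing the data. Of the symbols, 22710 matched GENCODE vM21 directly and 932 by an older symbol.

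The 10 genes and the lists were chosen with earlier results of these data known. Named outside the 10 are Hk2, the 2 most abundant genes of each list, the 8 genes with the smallest p in the fit on Fkbp5 at a mean log2 CPM of at least 0, and the 5 nearest to Fkbp5. Of the list genes so chosen, 2 are left out here. Nfil3 was chosen after its values were seen. Sequences are from RefSeq.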

Additional observations from a re-analysis of the deposited data

Results flagged for a closer look

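Of 44 groups of libraries tested for a sample far from the others, 12 held one. The groups were the 10 genes and Hk2 in each genotype, with and without the marked libraries. For normally distributed values chance gives about 1 in 20. The groups share libraries and CPM need not be normal, so these shares cannot be compared. Most of the 12 came from the marked libraries. HKII+/- replicate 11 was far above its genotype in Fkbp5 (201 CPM, the next library 40.4), Cdkn1a (148 CPM, next 38.9), Zbtb16 (541 CPM, next 250) and Hk2 (568 CPM, next 354), and far below in Nr3c1 (17.3 CPM, next 97.98). HKII+/+ replicate 13 was far above its genotype in Fkbp5 (98.0 CPM, next 47.9) and Zbtb16 (471 CPM, next 197) and far below in Nr3c1 (31.0 CPM, next 97.8).

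Among the unmarked hearts, HKII+/+ replicate 21 was far above the others in Mt2 (45.02 CPM, next 18.4), both with 6 libraries and with the 5 unmarked ones, and in Mt1 (181 CPM, next 108) with the 5. HKII+/+ replicate 18 was far below in Nr3c2 (12.4 CPM, next 16.1), although HKII+/- replicate 19 measured the same level.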

How the results depend on the processing

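None of the 10 genes was called between the genotypes under any scaling, filter, tool, covariate or left-out library that was run. DESeq2 with 12 libraries gave no adjusted p for Fkbp5. The number of genes called in all was 2 instead of 0 for limma voom with quality weights (12 libraries), 3 instead of 1 with DESeq2 (10 unmarked libraries), and 0 to 2 as single unmarked libraries were left out. Signs of small log2 fold changes moved. With 12 libraries, limma voom gave -0.096 for Nr3c1 and -0.048 for Nr3c2, quality weights 0.014 for Mt1, and the atrial covariate -0.023 for Sgk1 and -0.0031 for Nr3c1. With 10 libraries, limma voom gave 0.032 for Fkbp5 and 0.0245 for Cdkn1a, quality weights 0.104 for Fkbp5, 0.018 for Mt1 and 0.030 for Cdkn1a, and the atrial covariate 0.059 for Fkbp5. With that covariate 1 of the 10 had an unadjusted p below 0.05 (edgeR), as had 670 of all 14139 genes.

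Leaving out single libraries gave, with 12, -0.50 to 0.99 for Fkbp5, -0.20 to 0.69 for Zbtb16, -0.39 to 0.74 for Cdkn1a, -0.14 to 0.25 for Nr3c1, -0.12 to 0.23 for Nr3c2, -0.22 to 0.053 for Mt1, -0.38 to 0.14 for Mt2 and -0.022 to 0.18 for Sgk1. With 10 it gave -0.17 to 0.22 for Fkbp5, -0.19 to 0.18 for Mt1, -0.58 to 0.044 for Mt2, -0.23 to 0.23 for Cdkn1a, -0.0066 to 0.24 for Errfi1 and -0.013 to 0.24 for Nr3c2.

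Slopes on Fkbp5 ran from -0.072 to 0.65 for Tsc22d3, -0.94 to 0.72 for Mt1, -0.91 to 1.36 for Mt2 and -0.60 to 0.096 for Sgk1 (0.055 with the clock term). Without a genotype term 1 gene was called. Over 12 libraries, where 14107 genes passed the filter, 10160 genes were called, among them 6 of the 9 members tested. A call in that fit therefore does not single a gene out. The slopes there were -0.81 for Nr3c1 and -0.38 for Nr3c2. The number of called pairs was 9 with 12 libraries and 7 with genotypes centred, where the permutation did not allow for the means taken out. It was 0 without the 2 farthest libraries, 0 without replicates 12 and 21, and 1 to 4 as single libraries were left out. With 8 libraries the smaller number of samples limits the p-values that can be reached; the cause of the other changes was not tested. No paired analysis was possible because the genotypes share no replicate numbers. Depth did not limit the 10 genes, each with at least 130 counts in every library.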
